A study of Homo sapiens with 26 samples.

Results

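Of 87206 binding sites of the estrogen receptor (ER) or the progesterone receptor (PR), listed for the T47D line and a PR-deficient form of it, 7598 lay on chromosome 11. The sites were selected on position alone: every site of the 10 lists on chromosome 11 of the hg19 build was taken, and none was left out for a low score. Because the chromosome, its arms and its dense stretches were picked with the positions of these sites in view, their numbers are given as a description and no test is attached to them.

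T47D, a human cell line established from breast cancer, is labelled as positive for ER and PR, and the second line is labelled as ER-positive and PR-deficient, without a statement of how PR was lost or whether it is 1 clone. All cells had been deprived of steroids in charcoal-stripped medium. They then received the natural estrogen estradiol (E2) at 10 nM, the synthetic progestin R5020 at 10 nM, or the 2 hormones together at 10 nM each, for 45 min. Chromatin immunoprecipitation and sequencing (ChIP-seq) was done with an ER or a PR antibody, and for both hormones in T47D also with ER and then PR in sequence (reChIP). The 26 samples formed 26 groups of 1 library, and 10 libraries had a list of called sites, 7 from T47D and 3 from PR-deficient cells. With 1 library in each group no value has a replicate error, and each difference below compares libraries. Intervals are exact Clopper-Pearson 95% intervals and cover counting error over sites only. Read depth is unknown, and neither the vehicle libraries, which had been subtracted, nor the inputs were analysed here as lists.

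ER and PR are transcription factors of the nuclear receptor family that bind DNA once their steroid ligand is present. In breast cancer cells ER drives genes of growth, and the gene of PR is itself a well known target of ER. The long arm of chromosome 11 carries PGR, which encodes PR, and CCND1, which encodes cyclin D1, a driver of the cell cycle. Sites were not assigned to genes, because an annotation of hg19 was not used here.

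The lists fell into 2 sets by their share on chromosome 11. In T47D it held 11.5% of the PR sites with E2 (913 of 7961, interval 10.8 to 12.2), 12.6% with R5020 (804 of 6358, 11.8 to 13.5) and 11.5% with both hormones (1367 of 11908, 10.9 to 12.1). The ER list of T47D with R5020 was at 12.4% (662 of 5338, 11.5 to 13.3), and that of PR-deficient cells with R5020 was at 11.6% (1063 of 9141, upper bound 12.3). These 5 lists, the PR lists and the R5020 lists, therefore lay between 11.5 and 12.6%.

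The other 5 lists lay between 5.38 and 7.24%. ER with E2 in T47D had 5.38% (216 of 4014, 4.70 to 6.12), ER with both hormones 5.52% (1061 of 19220, 5.20 to 5.85), and the reChIP 5.89% (581 of 9861, 5.44 to 6.37). In PR-deficient cells ER with E2 had 6.73% (521 of 7742, 6.18 to 7.31) and ER with both hormones 7.24% (410 of 5663, 6.58 to 7.95). No interval of the first 5 lists touched one of these. For ER, R5020 alone thus stood apart from E2 and from both hormones in each line.

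**Figure D1:**
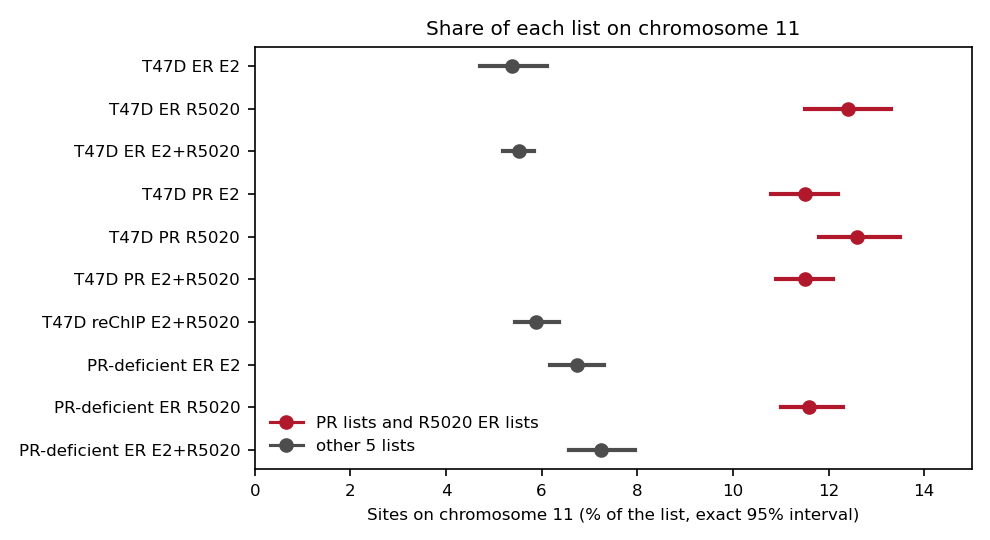
Share of each list's sites that lie on chromosome 11 (points, in % of the list) with exact 95% intervals (lines), for the 10 lists. The 3 PR lists and the 2 R5020 ER lists (red) sit between 11.5 and 12.6%, and the other 5 lists (grey) between 5.38 and 7.24%.

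Per Mb, chromosome 11 held 2.84 to 3.17 times the sites of the other chromosomes in the first 5 lists and 1.25 to 1.71 times in the others. It was the densest chromosome in the 3 PR lists and in the ER list of T47D with R5020, where chromosomes 3 and 20 came next in density. In PR-deficient cells with R5020 it was the third, at 7.88 sites per Mb, after chromosome 20 at 10.0 and chromosome 16 at 8.01. In the ER lists of E2 and of both hormones, in either line, the densest chromosome was 19, and in the reChIP it was 16.

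The short (p) and long (q) arms were separated at 53.7 Mb, and the q arm makes up 60.2% of the length. The last p arm site of any list ended 2106 kb before that border (chr11:51593334-51593631) and the first q arm site began 1054 kb after it (chr11:54753976-54754036). The border lies in a stretch of 3.16 Mb without any site, so no site was near enough for its arm to be in doubt.

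The excess of the first 5 lists lay on the q arm. It held 87.6% of the chromosome 11 sites of ER with R5020 in T47D (580 against 82 on the p arm), 86.2% of PR with E2 (787 against 126), 84.2% of PR with R5020 (677 against 127) and 85.7% of PR with both hormones (1171 against 196). For ER with R5020 in PR-deficient cells it was 84.9% (902 against 161). Per Mb the q arm exceeded the p arm 3.52- to 4.68-fold in these lists.

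In the other lists the arms were closer. ER with E2 in T47D had 53.7% on the q arm (116 against 100, interval 46.8 to 60.5). ER with both hormones had 58.6% (622 against 439, 55.6 to 61.6). Per Mb the q arm was at 0.767 and 0.937 times the p arm, but both intervals hold the 60.2% of an even spread. For ER with both hormones the direction depended on the setting. Its share was 60.9% with sites within 500 bp merged and 62.0% without sites near siteless stretches. The reChIP had 66.4% (62.4 to 70.3), and ER in PR-deficient cells had 66.8% with E2 (62.6 to 70.8) and 70.5% with both hormones (65.8 to 74.9).

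Counts in 5 Mb bins placed this excess. A bin was called dense when it held at least 2 times the list's mean over the 599 bins of all chromosomes. In T47D, PR with R5020 had 10 dense bins of the 27 on chromosome 11 (37.0%, against 13.0% of all bins), PR with E2 had 9 (33.3%, against 13.5%), PR with both hormones 9 (33.3%, against 13.0%) and ER with R5020 9 (33.3%, against 13.4%). PR-deficient cells with R5020 had 8 (29.6%, against 13.4%). These 8 to 10 bins contained between 79.7 and 83.5% of each list's chromosome 11 sites.

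Dense bins were not limited to these lists. ER with E2 in T47D had 4 (14.8%, against 15.9% of all bins), ER with both hormones 5 (18.5%, against 8.18%), and the reChIP 8 (29.6%, against 12.9%). In PR-deficient cells there were 8 with E2 (29.6%, against 16.7%) and 11 with both hormones (40.7%, against 16.4%). What set the first 5 lists apart was the height of the bins more than their number. The fullest chromosome 11 bin stood 10.8- to 15.8-fold above the list's mean in those lists and 4.03- to 6.77-fold in the others.

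The threshold passed between bins of similar size in some lists. In the reChIP the sparsest dense bin held 32 sites and the fullest bin below the threshold 30 (1.88-fold). For ER with E2 in T47D these were 14 (2.09-fold) and 13 (1.94-fold). Elsewhere the gap was wider. In PR-deficient cells with R5020 they were 45 sites (2.97-fold) and 29 (1.91-fold), and for PR with R5020 in T47D 27 (2.57-fold) and 17 (1.62-fold).

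The median bin of chromosome 11, dense bins included, was between 0.752 and 1.33 times the mean of its list in all 10 lists. It was above the median bin of all chromosomes in each list, with 9 against 3 sites for ER with R5020 in T47D, 12 against 5 for PR with E2, 14 against 3 for PR with R5020, 20 against 8 for PR with both hormones and 14 against 5 for PR-deficient cells with R5020. Outside the stretches described next, the first 5 lists ran at 0.680 to 0.851 times their genome-wide mean per Mb, a mean that includes dense bins of other chromosomes.

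**Figure D2:**
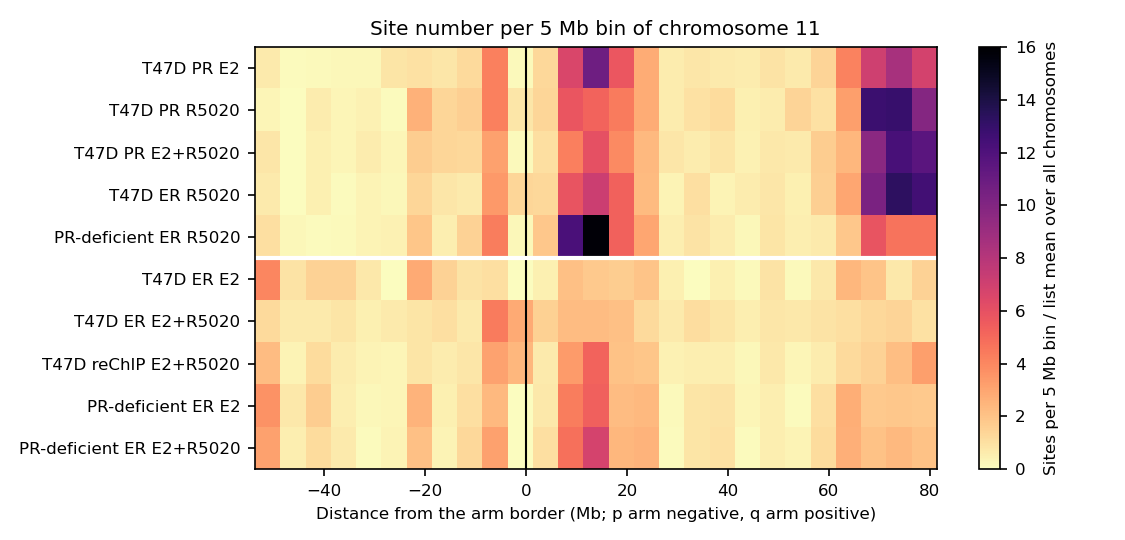
Sites per 5 Mb bin of chromosome 11 divided by the mean bin of the same list over all chromosomes (colour), for the 10 lists, against distance from the arm border in Mb (p arm negative, black line at the border). The 5 lists above the white line show dark blocks at both the inner and the outer part of the q arm, up to 15.8-fold, and the 5 lists below it reach at most 6.77-fold.

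Bins dense in at least 5 lists formed 3 stretches: 45 to 50 Mb on the p arm next to the border, 60 to 80 Mb on the inner q arm, and 115 to 135 Mb at the outer end of the q arm. The inner stretch held 2420 sites of all lists together (31.9%) and the outer stretch 2581 (34.0%), each on 14.8% of the length. The p arm stretch held 513 sites (6.75%) on 3.71% of the length. Between the long stretches, from 80 to 115 Mb, no bin was dense in any list.

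Both long stretches together contained 79.0% of the chromosome 11 sites of ER with R5020 in T47D (interval 75.7 to 82.0), 76.1% of PR with E2 (73.2 to 78.9), 74.5% of PR with R5020 (71.3 to 77.5), 75.9% of PR with both hormones (73.5 to 78.1) and 76.1% of ER with R5020 in PR-deficient cells (73.4 to 78.6). Their length is 29.6% of the chromosome. In the other lists the share ran from 36.7% (33.8 to 39.6) for ER with both hormones in T47D to 58.8% (53.8 to 63.6) for ER with both hormones in PR-deficient cells.

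The balance between inner and outer stretch separated the lists within the first set. Among the T47D lists of this set, the outer stretch was the denser in those that received R5020. PR with R5020 had 191 inner and 408 outer sites, PR with both hormones 326 and 711, and ER with R5020 180 and 343. The outer stretch was thus 2.14, 2.19 and 1.91 times as dense as the inner one. PR with E2 was even, with 343 inner and 352 outer sites (1.03 times).

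The R5020 list of PR-deficient cells was the reverse, with 550 inner and 259 outer sites (0.472 times). Its inner stretch alone held 51.7% of its chromosome 11 sites (48.7 to 54.8), at 9.07 times the list's mean, whereas the outer stretch held 24.4% (21.8 to 27.1). The ER list of T47D with R5020 had 27.2% inner (23.8 to 30.8) and 51.8% outer (47.9 to 55.7). The intervals of the 2 lines did not overlap for either stretch. The lines differ in more than the PR status of the label, in library and in score scale, and these cannot be told apart.

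The inner stretch was also the denser one in the 5 lists of the second set. The outer-to-inner ratio there was 0.882 for ER with E2 in T47D (50 inner and 44 outer sites), 0.609 for ER with both hormones (242 and 147), 0.643 for the reChIP (198 and 127), 0.572 for PR-deficient cells with E2 (184 and 105) and 0.546 with both hormones (156 and 85). All 3 lists of PR-deficient cells therefore leaned to the inner stretch, and R5020 differed from the other treatments there in the height of both stretches, with 9.07- and 4.28-fold against 3.56- and 2.04-fold for E2.

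**Figure D3:**
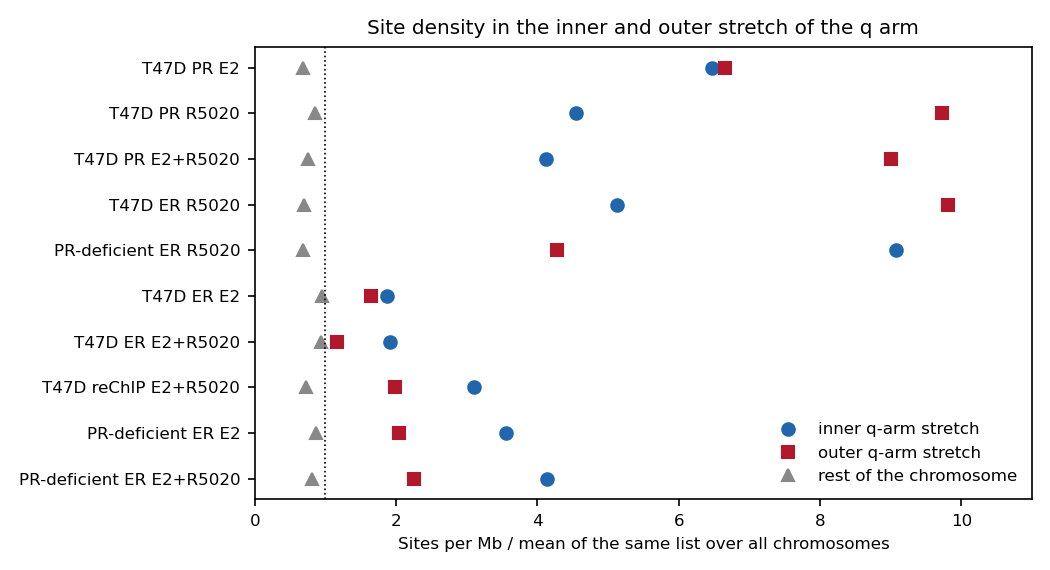
Site density per Mb divided by the list's mean over all chromosomes, for the inner q arm stretch (60 to 80 Mb, blue circles), the outer stretch (115 to 135 Mb, red squares) and the chromosome outside the 3 dense stretches (grey triangles), in each of the 10 lists. The dotted line marks the list's own mean. The outer stretch exceeds the inner one in 4 T47D lists, only slightly so for PR with E2 (1.03 times), and lies below it in the other 6 lists, by the widest ratio (0.472) in PR-deficient cells with R5020.

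Within the inner stretch the sites of PR-deficient cells with R5020 crowded into its first 10 Mb, with 425 sites from 60 to 70 Mb against 125 from 70 to 80 Mb. The fullest Mb of that list was 65 to 66 Mb, with 66 sites, where PR with E2 in T47D had 39, as many as in its other fullest Mb, 134 to 135 Mb at the end of the chromosome. T47D PR with R5020 and ER with R5020 were flatter there, with 116 against 75 and 114 against 66 sites in the same parts of the stretch. Toward its end the stretch thinned out. The 5 lists held 20 to 46 sites from 75 to 80 Mb, of which 0 or 1 lay from 79 to 80 Mb. From 80 to 90 Mb they held between 12 and 27 sites.

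Inside the outer stretch the counts rose in a step at 120 Mb. From the Mb before it to the Mb after it, the count went from 5 to 36 for ER with R5020 in T47D, from 8 to 41 for PR with R5020, from 14 to 62 for PR with both hormones and from 17 to 36 for PR with E2. In PR-deficient cells with R5020 it went from 5 to 23. In ER with both hormones in T47D the same step was from 5 to 8 sites, and in ER with E2 from 1 to 5. The low counts just before 120 Mb lie inside the dense bin of 115 to 120 Mb in several lists, and the dense stretch of PR-deficient cells with R5020 itself began at 120 Mb.

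Past the step the outer stretch was not even. The Mb from 127 to 128 Mb held 3 sites of ER with R5020 in T47D, 6 of PR with R5020, 4 of PR with both hormones, 1 of PR with E2 and none of ER with R5020 in PR-deficient cells, where the Mb before it held 25, 29, 58, 35 and 29. A second low point was at 132 to 133 Mb, with 1, 2, 11, 3 and 2 sites. The fullest Mb was 129 to 130 Mb for ER with R5020 (52 sites) and PR with R5020 (44) in T47D, and 134 to 135 Mb, at the end of the chromosome, for PR with both hormones (84). The first low point was common to the 5 lists but not limited to them. At the same place the count went from 16 to 2 in the reChIP. In PR-deficient cells it went from 11 to 2 with E2 and from 7 to 1 with both hormones. ER with both hormones in T47D went from 4 to 7, and ER with E2 had no site in either Mb. The second low point was at 132 to 133 Mb in the 4 T47D lists of the 5. PR-deficient cells with R5020 had 1 site from 131 to 132 Mb and 2 in the next Mb.

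The p arm stretch showed another pattern. From 48 to 49 Mb ER with both hormones in T47D held 97 sites, the reChIP 22, and each of the other 8 lists 3 to 9. From 50 to 52 Mb they held 80, 36 and 0 to 11, and on the other side of the siteless border, from 55 to 56 Mb, 28, 4 and 0 to 1. Inside 45 to 50 Mb the median distance between neighbouring sites of ER with both hormones was 1.86 kb, against 41.0 kb in its inner q arm stretch. That list had 49.9% of its p arm sites between 45 Mb and the border, but this was not particular to it. The share was slightly higher for ER with R5020 in T47D. It was 40.9 to 46.0% for PR with E2, PR with R5020, the reChIP and PR-deficient cells with R5020. In the remaining lists it was at most 32.1%. Leaving out sites within 2 Mb of a long stretch without sites took the q arm share of ER with both hormones from 58.6 to 62.0% and that of the reChIP from 66.4 to 70.6%.

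Site lengths on chromosome 11 were close to those elsewhere in each list. The median was 248 bp on chromosome 11 and 248 bp on the other chromosomes for ER with R5020 in T47D, 149 and 149 bp for PR with R5020, 295 and 292 bp for PR with both hormones, 279 and 247 bp for PR with E2, and 246 and 234 bp for PR-deficient cells with R5020. Lists differed far more among themselves, with medians up to 1417 bp for ER with both hormones in PR-deficient cells.

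Each site carries the authors' score, of a unit that no source used here gives, and it moves in even steps that differ between lists. It was used only within a list. In the 5 lists of high share, more chromosome 11 sites than other sites had the lowest score of the list: 53.0 against 45.3% for ER with R5020 in T47D, 43.4 against 37.0% for PR with both hormones, 60.9 against 58.2% for PR with E2, 14.6 against 12.9% for PR with R5020 and 53.5 against 51.9% for PR-deficient cells with R5020. The direction was the same in PR-deficient cells with E2 (9.79 against 9.36%) and with both hormones, and the reverse in the remaining lists. Chromosome 11 shares were also compared between sites at the lowest score and sites above it. Among the 5 lists, the intervals were apart for ER with R5020 (12.9 to 15.6 and 9.73 to 12.0) and PR with both hormones (12.2 to 14.2 and 9.76 to 11.2). They overlapped in the rest of the 5 lists. Within the inner and outer stretch, sites at the lowest score made up 42.9 to 66.5% in 4 of these lists, and 12.6 and 16.2% for PR with R5020. The part of score in the excess was not tested.

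Sites above the lowest score still lay on chromosome 11 in 10.8% of cases for ER with R5020 (311 of 2867, interval 9.73 to 12.0), 12.4% for PR with R5020, 10.4% for PR with both hormones, 10.8% for PR with E2 and 11.3% for PR-deficient cells with R5020. Among the highest-scoring 10% of each list the share was lower in 4 of them, at 6.57% (4.62 to 9.01), 8.98%, 7.98% and 9.19% for ER with R5020, PR with R5020, PR with both hormones and PR-deficient cells with R5020. PR with E2 was the exception, at 13.7% (11.4 to 16.3). Equal scores were ranked by length first, and chromosome 11 sites were the longer in this list (median 279 against 247 bp). The part of this ranking in the share was not tested. Of the 100 highest-scoring sites of each of these 5 lists, 3 to 10 were on chromosome 11, and of the 100 of each of the other 5 lists 4 to 8. The highest-scoring 10% of the other lists had 5.48 to 6.85% on chromosome 11, and the highest of these, ER with E2 in PR-deficient cells at 6.85% (5.17 to 8.86), was above ER with R5020 in T47D at 6.57%. The 2 sets of lists were thus not apart among their highest-scoring 10%, through ER with R5020 in T47D. The other 4 lists of the first set had 7.98 to 13.7%, above 6.85%. Of these, only PR with E2 had an interval above all intervals of the second set, whose highest bound was 8.90%.

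The highest-scoring chromosome 11 site of ER with R5020 in T47D was chr11:120507498-120508426, at 929 bp, the second of the whole list with a score of 83.9. It lies in the outer stretch. The ER list with both hormones had its highest chromosome 11 site at the same place (chr11:120507450-120508422, score 177, 11th of 19220). The next in both lists was also shared, at chr11:10530431-10530611 with R5020 and chr11:10530429-10530533 with both hormones. The third sites, chr11:35270187-35270458 and chr11:44572178-44572533, were not at the same place.

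For PR with R5020 the leading site was chr11:129194398-129194999 (score 64.9, 13th of 6358), which met a site of 7 other lists. It was followed by chr11:62276192-62276406, the leading site of the inner stretch, and by chr11:130732454-130732594, which met none. PR with both hormones was led by chr11:126371968-126372639 (score 96.9, 19th of 11908), then chr11:129194220-129195116 and chr11:48102595-48103204. The last of these led its p arm stretch, and chr11:68974376-68975247 led its inner stretch. PR with E2 was led by chr11:134321375-134321779 in the outer stretch (score 36.4, 34th of 7961), then chr11:1018195-1018557 and chr11:95892544-95892884. Its inner stretch was led by chr11:71149167-71149537.

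ER with R5020 in PR-deficient cells was led by chr11:50676305-50676394 (score 72.8, 18th of 9141), near the border, then by chr11:129450235-129450490 and chr11:66049789-66050410, the leading sites of its outer and inner stretch. None of the 3 met a site of the T47D lists of ER or PR. The first 2 met a reChIP site and the third met sites of both other PR-deficient lists. The other dense stretches of the 5 lists were led by chr11:48867778-48867844 and chr11:61860139-61860393 (ER with R5020), chr11:45231931-45232235 (PR with E2), chr11:34661539-34661801 and chr11:46367476-46367594 (PR with R5020), and chr11:48810196-48810330 (PR-deficient cells).

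The lists outside this set were led by other places. ER with E2 in T47D had chr11:75043426-75047620 (13th of 4014), chr11:100904377-100905506 and chr11:115420434-115421914. The reChIP had chr11:51582567-51583138 beside the siteless border (39th of 9861), then chr11:126251540-126253490 and chr11:126234404-126236083. In PR-deficient cells the same 3 places led with E2 and with both hormones, at chr11:72900038-72904119 (2nd of 7742 with E2), chr11:1817186-1818562 and chr11:46384116-46387065 with E2.

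Sharing was counted for each of the 90 ordered pairs of lists, with an overlap of 1 bp or more. The lists of each line and antibody had the same vehicle library subtracted, so their overlap is not independent. On chromosome 11 the share was higher than over all chromosomes in 45 pairs, with the interval above the overall share in 13 pairs and below it in 17. Over the 90 pairs, higher and lower shares on chromosome 11 were thus equally frequent.

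**Figure D4:**
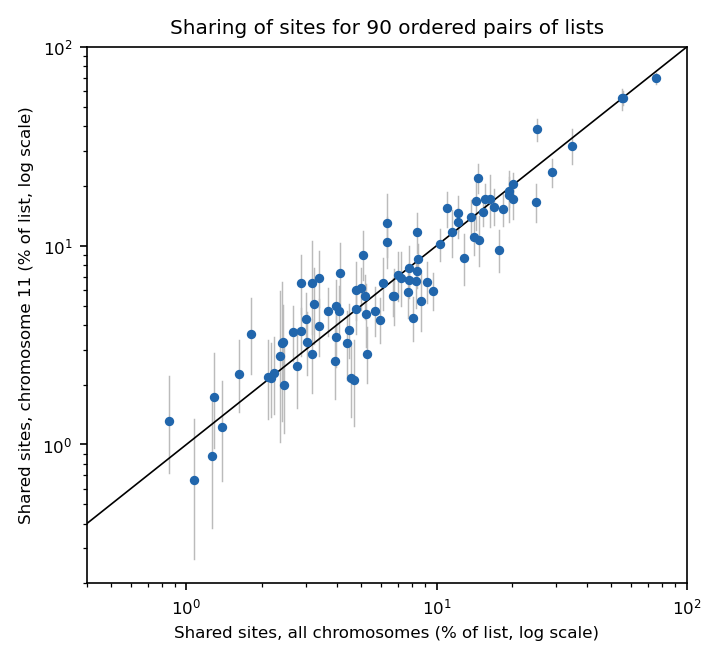
Share of a list's sites that met a site of another list, on chromosome 11 (vertical, in %, log scale, lines are exact 95% intervals) against all chromosomes (horizontal, in %, log scale), for the 90 ordered pairs of lists. The diagonal marks equal shares, and 45 of the 90 points lie above it.

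Among the PR lists of T47D, 13.1% of the chromosome 11 sites with E2 met a site of PR with both hormones (120 of 913, upper bound of the interval 15.5, against 12.2% of the whole list). When an overlap was counted only if it spanned 50% or more of each site, this share was 8.43%, and with lists of equal length it was 5%. With R5020 it was 11.1% (89 of 804, 8.98 to 13.4, against 14.1%). The sharing of PR with E2 lay mostly in the outer stretch, where 21.6% of its sites were shared (76 of 352, 17.4 to 26.3), against 24 of 343 sites in the inner stretch (interval 4.53 to 10.2%) and 8.02% outside the dense stretches (13 of 162, 4.34 to 13.3). For PR with R5020 the 2 stretches were closer, at 12.3% (9.23 to 15.8) and 8.38% (4.86 to 13.2).

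Between the receptors the shares were small. Of the chromosome 11 sites of ER with R5020 in T47D, 6.65% met a PR site with R5020 (44 of 662, 4.87 to 8.82, against 8.28% over all chromosomes). Of PR with both hormones, 4.32% met an ER site with both hormones (59 of 1367, 3.30 to 5.53, against 8.07%, and 2.78% at 50% overlap), and in the outer stretch it was 2.67% (19 of 711, 1.62 to 4.14). The reChIP met ER with both hormones at 18.8% of its chromosome 11 sites (15.7 to 22.2, against 19.5%) and PR with both hormones at 14.6% (11.9 to 17.8, against 12.2%).

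Of ER with R5020 in T47D, 9.52% met a site of ER with both hormones (63 of 662, 7.39 to 12.0, against 17.7% over all chromosomes). By stretch the share was 4.96% in the outer stretch (17 of 343, 2.91 to 7.82), 7.78% in the inner one (14 of 180, 4.32 to 12.7) 26.7% in the p arm stretch (8 of 30, 12.3 to 45.9) and 24 of 109 sites outside the dense stretches (interval 14.6 to 31.0%). This share was thus lower in both long stretches than in the rest of the chromosome. ER with E2 met ER with R5020 at 13.0% of its chromosome 11 sites (28 of 216, 8.79 to 18.2, against 6.35%). Here the long stretches were the higher, with 20.5% in the outer (9 of 44, 9.80 to 35.3), 10 of 50 sites in the inner (upper bound 33.7%) and 6.96% outside the dense stretches (8 of 115, 3.05 to 13.2). It came to 0.463% at 50% overlap, 7.87% by centres within 200 bp and 8.29% with the lowest score raised by 1 step. The 50% overlap is required of both sites, and a pair in which 1 site is shorter than 50% of the other cannot meet it. Median lengths on chromosome 11 were 1206 bp with E2 and 248 bp with R5020. In the other direction, 4.53% of the R5020 sites met a site with E2 (30 of 662, 3.08 to 6.41, against 5.21%), with 2.62% in the outer stretch (9 of 343), 6.67% in the inner (12 of 180) and 7.34% outside the dense stretches (8 of 109). At 50% overlap it was 0.151%, and by centres 2.57%.

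Between the lines, ER with E2 was shared most. Of its T47D sites on chromosome 11, 55.1% met an ER site with E2 in PR-deficient cells (against 54.9% over all chromosomes). In the other direction it was 23.4% (122 of 521, 19.8 to 27.3, against 29.0%). The R5020 lists of the 2 lines, similar in chromosome 11 share, had few sites in common. Their sites were shorter, with medians of 248 and 246 bp against 1206 and 1148 bp with E2, and the part of length was not tested. Of the T47D sites 5.59% met ER with R5020 in PR-deficient cells (37 of 662, 3.97 to 7.62, against 6.78%). Of the PR-deficient sites 3.48% met ER with R5020 in T47D (37 of 1063, 2.46 to 4.77, against 3.97%) and 1.32% met PR with R5020 (14 of 1063, 0.722 to 2.20, against 0.853%). The last share was 0.376% at 50% overlap, 0.577% in the higher-scoring 50% of each list, 0.638% with lists of equal length and 0.810% with the lowest score raised. In the inner stretch, where that list was densest, the shares were 3.09% (17 of 550) and 0.909% (5 of 550).

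Within PR-deficient cells, 38.5% of the sites with both hormones met a site with R5020 (158 of 410, 33.8 to 43.4, against 25.1%). The share was 52.6% in the inner stretch (82 of 156, 44.4 to 60.6) and 25.2% outside the dense stretches (35 of 139, 18.2 to 33.2). Over chromosome 11 it was 22.8% with the lowest score raised, 24.9% in the higher-scoring 50%, 23.6% with lists of equal length, 18.8% by centres and 1.46% at 50% overlap. Here too the site lengths differed, with medians of 1417 bp with both hormones and 246 bp with R5020. In the other direction, 20.5% of the R5020 sites met a site with both hormones (218 of 1063, 18.1 to 23.1, against 20.2%). By stretch this was 21.3% in the inner stretch (117 of 550) and 23.4% outside the dense stretches (44 of 188). The sites with both hormones met a site with E2 more often, at 69.5% (285 of 410, 64.8 to 73.9, against 75.4%).

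Joining the overlapping sites of all lists gave 5756 regions on chromosome 11 of 64490 in all. Of these, 81.9% came from 1 list (80.4% over all chromosomes), and 59 were found in 5 or more lists, 1.03% of those on chromosome 11 against 1.18% of all regions. Regions with T47D PR sites only made up 42.0% on chromosome 11 and 30.7% over all chromosomes, and 1135 of these 2417 regions lay in the outer stretch. Regions with T47D ER sites only were 23.2 against 30.7%. Regions with sites of PR-deficient cells only were 17.5 against 16.1%, and 485 of these 1007 lay in the inner stretch.

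The region found in most lists with the highest score was chr11:120507083-120510722, 3640 bp in the outer stretch, present in 8 lists: all 3 ER and all 3 PR lists of T47D, the reChIP and PR-deficient cells with E2. Its site was the 2nd of 5338 for ER with R5020, the 11th of 19220 for ER with both hormones and the 75th of 4014 for ER with E2, but the 2804th of 7742 in PR-deficient cells with E2. It was missing from the PR-deficient lists of R5020 and of both hormones.

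A region of the outer stretch at chr11:129193912-129195709 was also in 8 lists and was missing from PR with E2 and from PR-deficient cells with R5020. The third, chr11:63636275-63642729 in the inner stretch, was missing from PR with E2 and PR with R5020, and contained 3 sites of PR-deficient cells with E2. Regions in 7 lists included chr11:34660831-34662536 on the p arm, chr11:101311911-101313369 between the long stretches and chr11:76483217-76486169 in the inner stretch. PR with E2 was in none of the last 5 of these 6 regions.

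Across the 59 regions of 5 or more lists, ER with E2 in PR-deficient cells was present in 49, PR with both hormones in 48, the reChIP in 47 and ER with both hormones in PR-deficient cells in 45. ER with R5020 in PR-deficient cells was present in 17 and PR with R5020 in 19, although both lists had more chromosome 11 sites than the reChIP. Regions were joined by overlap, so presence also depends on the length that the sites cover. On chromosome 11 this was 303 kb and 122 kb for these 2 lists and 188 kb for the reChIP. For PR-deficient cells it was 720 kb with E2 and 705 kb with both hormones. The part of length was not tested. By place, 17 of the 59 regions lay in the outer stretch, 21 in the inner one, 7 in the p arm stretch and 14 elsewhere. These were 0.854% of the 1990 regions of the outer stretch, 1.18% of the 1783 of the inner one and 0.878% of those outside the dense stretches. The numbers are small and no interval was computed. Regions in 2 or more lists were 18.2% in the outer and 18.1% in the inner stretch.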

How the data were processed

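Alignment used Bowtie2 and site calling MACS, on hg19, per the submitters' processing notes, with versions and settings not given in the sources used here. Vehicle libraries (and IgG for the reChIP) had been subtracted, per the labels. Each list comes from 1 library. The deposited lists give position, length and the authors' score, of a unit that no source used here gives. Depth is unknown. The members and lists were chosen with earlier results of these data known.

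Sites were counted by their centre in 5 Mb bins and arms with pandas 2.3.3, NumPy 2.4.6 and SciPy 1.17.1 under Python 3.11.15, with plots from matplotlib 3.10.9. Overlap and dense-bin counts were tested on simulated data. Sites of equal score were ranked by length, then by chromosome and position. Named sites are the 3 highest-scoring per list, the 6 regions in most lists, and the leading site of each dense stretch of the PR and R5020 lists. Alternatives were the lowest score raised by 1 step, the higher-scoring 50%, sites within 500 bp merged, no sites within 2 Mb of a siteless stretch of 3 Mb, other bins and folds, stricter overlap and equal list lengths. For PR with E2 and for PR-deficient cells with R5020, 4660 of 7961 and 4764 of 9141 sites had the lowest score. The higher-scoring 50% of these lists thus took in lowest-score sites, the longer ones first. Planned motif and gene searches were not run, because hg19 sequence and annotation were not used here.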

Additional observations from a re-analysis of the deposited data

Results flagged for a closer look

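The number of ER sites on chromosome 11 went in opposite directions in the 2 lines when hormones were combined, which is why it is listed here. In T47D, E2+R5020 minus E2 came to 845 sites (1061 against 216), and in PR-deficient cells to -111 (410 against 521). E2+R5020 minus R5020 came to 399 sites in T47D (1061 against 662) and -653 in PR-deficient cells (410 against 1063). With 1 library per group the difference was not tested. The lists differ in length over all chromosomes in the same directions (19220 against 4014 and 5338 in T47D, 5663 against 7742 and 9141 in PR-deficient cells), and the part of list length in the result was not tested.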

How the results depend on the processing

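The PR and R5020 lists stayed apart from the other 5 in their share on chromosome 11 and on the q arm under each of the 4 alternatives for the lists: the lowest values of the first set were 10.3 and 82.8%, and the highest of the others 7.40 and 71.0%. Among the highest-scoring 10% of each list the chromosome 11 shares of the 2 sets overlapped (6.57 to 13.7% and 5.48 to 6.85%). With the lowest score raised, the chromosome 11 share was 10.8% for ER with R5020 and 10.4% for PR with both hormones in T47D. In the higher-scoring 50% it was 10.9, 10.3 and, for the reChIP, 5.23%, and the q arm share was 54.3% for ER with both hormones and 59.3% for the reChIP. Without sites near siteless stretches, the chromosome 11 share was 14.1% for ER with R5020, 13.8% for PR with R5020, 12.3% for PR with both hormones, 6.79% for the reChIP and 12.5% for PR-deficient cells with R5020, and the q arm share 62.0% for ER with both hormones and 70.6% for the reChIP. Merging gave 6.52% for the reChIP.

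Sharing depended more on the definition. ER with E2 in PR-deficient ER with E2 was 45.4% at 50% overlap, 41.2% by centres and 38.9% at equal list lengths. ER with R5020 in ER with both hormones was 15.4% with the score raised, 14.7% in the higher-scoring 50% and 7.10% at 50% overlap. ER with R5020 in PR with R5020 was 1.96% at 50% overlap. PR with R5020 in PR with both hormones was 1.49% at 50% overlap, 8.46% by centres and 8.88% at equal lengths. PR-deficient ER with R5020 in T47D ER with R5020 was 2.31% in the higher-scoring 50% and 1.98% at 50% overlap. The causes were not tested. The 50% overlap gave a lower share in each of the 90 pairs, by its construction. It is required of both sites, so its values also depend on how alike the site lengths of the 2 lists are. No paired analysis was possible because groups consist of a single library, and no replicate could be left out. The outer stretch stayed denser than the inner one for ER with R5020, PR with R5020 and PR with both hormones, at 1.88 to 2.24 times over these 4 alternatives, and PR-deficient cells with R5020 stayed at 0.471 to 0.560. A threshold of 3 times the mean made the dense length shorter in each of the 10 lists, at 5 to 40 Mb.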
